A study of Mus musculus with 2 samples.

Results

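The 8 genes described here encode the main apolipoproteins of the brain and the proteins that load, modify and take up their lipid: Apoe, Clu, Apod, Abca1, Abca7, Lcat, Lrp1 and Sorl1. They were taken by name from the 55536 annotated genes of the deposited tables, and all 8 were found by symbol. Apolipoproteins are secreted proteins that carry cholesterol and phospholipid between cells; in brain, astrocytes are a chief source of apolipoprotein E and clusterin. ABC transporters of the A class move lipid out of cells onto these carriers, the enzyme LCAT esterifies the cholesterol they hold, and receptors with low-density lipoprotein receptor repeats bind and internalise them. Human APOE, CLU, ABCA7 and SORL1 are genes in which variants are associated with Alzheimer disease.

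Total RNA was sequenced from the left cerebral cortex of 2 adult male mice aged 8 to 10 months, which form a single group and are given as biological replicates 1 and 2. Both mice came from a cross of 5xFAD with CAST, supplied by The Jackson Laboratory. The 5xFAD line expresses mutant human APP, among its transgenes, from the neuronal Thy1 promoter and deposits amyloid, and CAST is a wild-derived inbred strain. The labels give separate biosamples under a shared strain-level donor, and do not state how many copies of each transgene the animals carried. Cortex lacking the transgenes was not analysed here. The values below therefore describe levels and the spread between a pair of animals, with no test and no p-value. Reads from CAST alleles were quantified on the mm10 reference, and what strain differences in sequence did to these values was not tested.

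The expected counts over annotated genes summed to 33925198 reads in replicate 1 and 32380299 reads in replicate 2, so that 3 reads corresponded to 0.0884 and 0.0926 CPM. The tissue label was checked against markers: all 4 cortical neuron markers, Slc17a7, Rbfox3, Tbr1 and Neurod6, were detected, with a summed level of 601 TPM in replicate 1 and 686 TPM in replicate 2 (TPM is a share of RNA molecules, adjusted for transcript length). Astrocyte markers summed to 1221 and 1233 TPM in replicates 1 and 2, and microglial markers to 280 and 260 TPM. Choroid plexus markers stood apart, at 553 TPM in replicate 1 and 106.5 TPM in replicate 2, and all 7 of them were over 2-fold higher in replicate 1. Ttr alone gave 534.5 and 101.22 TPM of these sums, and 3 of the 7 reached 1 TPM in both libraries. In bulk tissue, fewer cells of a type and less RNA per cell cannot be told apart.

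All 8 genes were detected, taken as at least 1 TPM in both libraries, and their levels spanned a wide range. The median of their mean levels was 83.3 TPM, beside 15.02 TPM over the 13083 protein-coding genes that were detected. Apoe was the highest, followed by Clu, then Lrp1 and Apod, then Sorl1, then Lcat and Abca1, and last Abca7. Neighbours in this order did not overlap between the animals, with 2 exceptions: Lrp1 with Apod, and Lcat with Abca1. Ranked among 22028 protein-coding genes by mean TPM, Apoe was 19, Clu 73, Lrp1 653, Apod 781, Sorl1 1596, Lcat 7907, Abca1 8128 and Abca7 10328. The 3 carrier proteins and the receptors thus lay above the enzyme and both transporters in each library. None of the 100-base windows of the transcripts that led in either library and table, or that contain the whole coding sequence, occurred in a transcript of another gene. These transcripts thus shared no identical stretch of that length with another gene. Copies that differ by a few bases were not searched for.

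**Figure D1:**
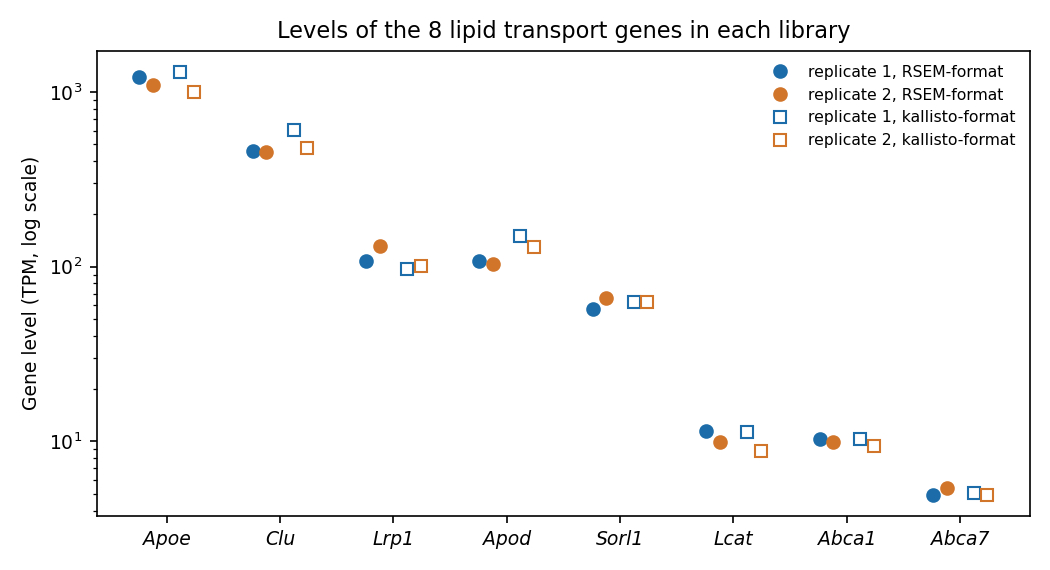
Level of each of the 8 genes in TPM on a log axis, with replicate 1 left of replicate 2. Filled circles are the RSEM-format table and open squares the kallisto-format table; Apoe lies above 1000 TPM in all 4 values and Abca7 near 5 TPM.

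Apoe encodes apolipoprotein E, the principal lipid carrier of brain lipoproteins. The gene lies on the minus strand of chromosome 7, at 19696109 to 19699188 of mm10 (ENSMUSG00000002985.16). It collected 31167 reads in replicate 1 and 25272 reads in replicate 2, and stood at 1211.51 and 1100.40 TPM in these libraries (1156 ± 78.6, SD, n = 2). Among protein-coding genes, this level ranked 16 in replicate 1 and 20 in replicate 2. Apoe was thus among the 20 highest coding genes of both libraries. On counts scaled between the libraries by the trimmed mean of M-values (TMM), the log2 ratio of replicate 1 over replicate 2 was 0.27, with a 95% counting interval of 0.24 to 0.29. Among the 11273 genes that reached 200 reads in each library, 94.8% had a smaller ratio in either direction.

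Most Apoe RNA was assigned to transcripts that encode the same protein. Of its 11 annotated transcripts, 4 contain the identical coding sequence of 933 bases, or 311 codons, and differ outside it, at the 5′ end and, for Apoe-206, also by 163 further bases at the 3′ end. Together these 4 held 99.01% of the gene's TPM in replicate 1 and 98.80% in replicate 2. They reach the sequence shared by all 4 at the same base, position 19698253 of chromosome 7, and are shown because the 2 deposited tables divide Apoe differently among them. In the sequences below, which run 5′ to 3′ on the minus strand, the capitals mark the 15 bases before that point and the lower-case letters the 15 shared bases after it.
Apoe-209: CACCCAGGGACCTTGactggccaatcacaa
Apoe-206: TTTCGGAAGGAGCTGactggccaatcacaa
Apoe-201: TTTTTCCCTCCGCAGactggccaatcacaa
Apoe-205: TTTTTCCCTCCGCAGactggccaatcacaa

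Apoe-209, whose first exon of 37 bases is its only sequence that Apoe-205 lacks, led in both libraries, with 86.37% of Apoe TPM in replicate 1 and 84.48% in replicate 2. Apoe-206, which starts farther upstream, held 9.99% and 10.24% in the same libraries. The other 2 were minor in the RSEM-format table: Apoe-201 held 2.43% and 3.88%, and Apoe-205 held 0.22% and 0.20%. The animals thus agreed within 2 percentage points on each of the 4. The kallisto-format table divided the gene otherwise, giving Apoe-209 54.6% in replicate 1 and 51.3% in replicate 2. It placed Apoe-205 at 422 and 349 TPM in replicates 1 and 2, where the RSEM-format table had 2.62 and 2.18 TPM. Apoe-205 and Apoe-209 have 1067 bases in common, and Apoe-205 reads the same 15 bases as Apoe-201 before the shared point. The gene's total was close in both tables, at 1151 ± 214 TPM (SD, n = 2) in the kallisto-format table, so the disagreement concerned the start of the transcript and left the summed share of the 4 at 99.6% and 99.5%.

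Clu encodes clusterin, also called apolipoprotein J, a secreted chaperone and lipid carrier. It lies on the plus strand of chromosome 14, at 65968483 to 65981547 (ENSMUSG00000022037.15). Replicate 1 had 19269 reads and replicate 2 had 16851 reads, for 458.5 and 449.93 TPM (454 ± 6.06, SD, n = 2), which ranked 72 and 74 among coding genes. In the RSEM-format table the TPM differed less between the animals than the scaled counts did, whose log2 ratio was 0.16 (counting interval 0.13 to 0.19). Nuclear protein-coding genes together made up 42.1% of all TPM there in replicate 1 and 45.2% in replicate 2, so a TPM of a coding gene is relative to a different remainder in each library. In the kallisto-format table Clu stood at 605 TPM in replicate 1 and 479 TPM in replicate 2. There the TPM differed more than the scaled counts, whose log2 ratio was 0.19. Apoe exceeded Clu 2.64-fold in replicate 1 and 2.45-fold in replicate 2.

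A single transcript, Clu-201, accounted for nearly all of the gene in the RSEM-format table, with 97.22% of Clu TPM in replicate 1 and 97.15% in replicate 2. In the kallisto-format table its share was 73.2% and 77.9%. Much of the remainder there lay in Clu-205, annotated as a target of nonsense-mediated decay, at 24.2% in replicate 1 and 10.7% in replicate 2, and in the coding-typed Clu-203, at 1.75% and 9.84%. The RSEM-format table gave Clu-205 0.08% and 0.64%, and Clu-203 0.14% and 0.31%. Of the 558 bases of Clu-205, 554 also occur in Clu-201, so few reads could separate the pair, and the level of Clu-205 is not settled by these files.

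Apod encodes apolipoprotein D, a lipocalin that binds small lipids and is not related in sequence to the other carriers. The gene is on the minus strand of chromosome 16, at 31296192 to 31314808 (ENSMUSG00000022548.14). Its reads came to 2642 in replicate 1 and 2229 in replicate 2, and it stood at 107.55 and 102.94 TPM (105 ± 3.26, SD, n = 2). Its log2 ratio on scaled counts was 0.21 (counting interval 0.13 to 0.29). Apoe was 11.3-fold above Apod in replicate 1 and 10.7-fold above it in replicate 2, and Clu 4.26-fold and 4.37-fold above it, so the proportions of the 3 carriers were alike in both cortices.

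Apod was the one gene among the 8 whose leading transcript differed between the animals. In replicate 1 the coding transcript Apod-202 led, with 47.55% of Apod TPM against 36.22% in replicate 2. In replicate 2 Apod-201 led, with 39.63% in replicate 1 and 46.99% in replicate 2. The kallisto-format table also had Apod-202 ahead in replicate 1, at 43.1% beside 33.5% for Apod-201, and behind in replicate 2, at 34.5% beside 36.1%. By assigned reads the change lay in Apod-202, which was assigned 1239 reads in replicate 1 and 806 reads in replicate 2, while Apod-201 was assigned 936 and 948 reads. All 1070 bases of Apod-202 also occur in Apod-203, and 826 of them in Apod-201. The division of reads among these transcripts is therefore an estimate, and the change of leading transcript is not settled by these files. Across all detected protein-coding genes with at least 2 transcripts, 10375 of 11829 (87.7%) kept the same leading transcript in both libraries, beside 6 of the 7 described here that have more than 1 transcript.

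The annotation types Apod-201 as a retained intron, yet it contains the whole Apod coding sequence of 567 bases, or 189 codons. Apod-201 and Apod-202 have 826 bases in common, of lengths of 979 and 1070 bases. Counted by transcript type, protein-coding transcripts held 55.6% of Apod TPM in replicate 1 and 45.5% in replicate 2. Counted by the 3 transcripts that contain the whole coding sequence, the share was 95.27% and 92.51%. Summed in this way, Apod stood at 53.4 ± 9.18 TPM by the type and at 98.9 ± 5.11 TPM by the sequence (SD, n = 2 each).

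**Figure D2:**
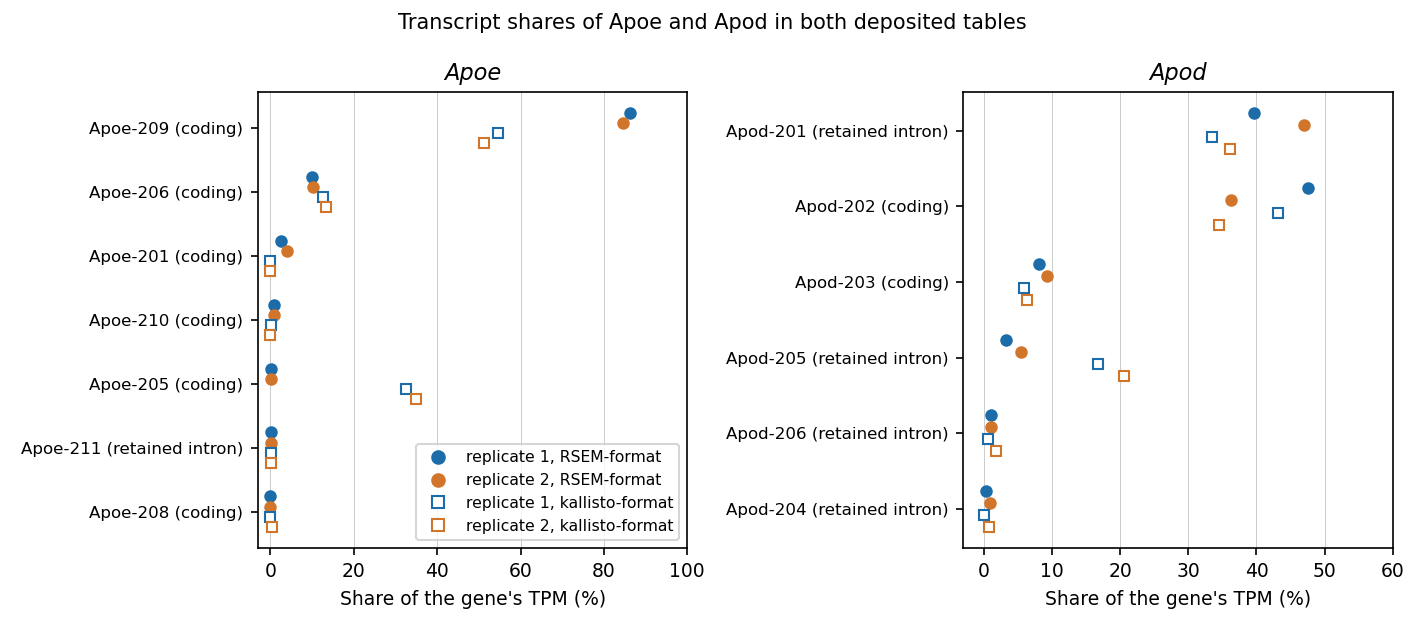
Share of each gene's TPM, in percent, taken by the transcripts of Apoe and Apod that reach 0.1% in either table; circles are the RSEM-format table and squares the kallisto-format table, with replicate 1 above replicate 2. Apoe-205 is near 0% in circles and above 30% in squares, and Apod-201 and Apod-202 change places between the animals.

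Abca1 encodes the transporter that moves cholesterol and phospholipid onto apolipoprotein E and its plasma relatives. It lies on the minus strand of chromosome 4, at 53030787 to 53159895 (ENSMUSG00000015243.4). There were 2510 reads in replicate 1 and 2235 reads in replicate 2, and the level was 10.32 and 9.86 TPM (10.09 ± 0.325, SD, n = 2). The log2 ratio was 0.13 (counting interval 0.05 to 0.22). The coding transcript Abca1-201, with 2261 codons, held 95.54% of Abca1 TPM in replicate 1 and 100% in replicate 2. The only other transcript, Abca1-202, was assigned under 10 reads in each library of the RSEM-format table.

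Abca1 is a textbook target of the liver X receptors, which with retinoid X receptors bind direct repeats spaced by 4 bases, called DR4. The 250 bases before its RefSeq start (GRCm38.p6, minus strand, chr4:53159896-53160145) are printed because they hold such letters. The capitals mark a match to the DR4 letters NGGTNANNNNNGGTCA, read on the opposite strand, which begins 67 bases before the start.
Abca1: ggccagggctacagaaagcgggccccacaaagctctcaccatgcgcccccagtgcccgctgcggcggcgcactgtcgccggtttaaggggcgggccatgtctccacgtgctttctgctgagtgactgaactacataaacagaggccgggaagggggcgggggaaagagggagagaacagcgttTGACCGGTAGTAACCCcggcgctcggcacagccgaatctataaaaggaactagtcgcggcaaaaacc
These letters were written with the Abca1 sequence in view, and they were found on either strand in 68 of 32851 RefSeq promoter windows (0.207%). RefSeq promoters were at hand for 7 of the 8 genes, in 10 windows, and the Abca1 window was the only one of them with a match. The same windows were searched for the E-box CACGTG, found in 7.15% of all windows and in 2 of the 10, from Abca1 and Sorl1. The letters TATAAA were found in 13.6% of all windows and in 2 of the 10, from Abca1 and Apoe. Apoe has 3 of the 10 windows and Sorl1 has 2, so not every window of these genes held a match. In the Abca1 window the matches to the 3 motifs do not overlap, and a match describes the sequence alone. The liver X receptor genes were themselves measured, with Nr1h2 at 27.1 ± 0.523 TPM and Nr1h3 at 1.56 ± 0.453 TPM (SD, n = 2 each). Of the retinoid X receptor genes, Rxrb stood at 32.2 ± 0.410 TPM, Rxra at 12.4 ± 0.184 TPM and Rxrg at 10.1 ± 1.05 TPM (SD, n = 2 each).

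Abca7 encodes a transporter related to Abca1 that acts in phospholipid handling and phagocytosis. It is on the plus strand of chromosome 10, at 79996494 to 80015572 (ENSMUSG00000035722.15). It had the fewest TPM of the 8 genes, 4.95 in replicate 1 and 5.37 in replicate 2 (5.16 ± 0.297, SD, n = 2), from 814 and 788 reads. The log2 ratio was 0.01 and its counting interval of −0.13 to 0.16 included 0. Abca1 exceeded Abca7 2.08-fold in replicate 1 and 1.84-fold in replicate 2.

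Abca7 RNA was split between a pair of coding transcripts. Abca7-202 held 72.44% of Abca7 TPM in replicate 1 and 70.48% in replicate 2, and Abca7-203 held 27.56% and 29.52%. The kallisto-format table had the same order, with 58.0% and 65.4% for Abca7-202. Their coding sequences differ by 24 bases, at 80007300 to 80007323 of chromosome 10, which lengthen the frame of Abca7-203 by 8 codons. The extra bases stand in capitals below, with the same 30 bases on each side in both transcripts.
Abca7-203: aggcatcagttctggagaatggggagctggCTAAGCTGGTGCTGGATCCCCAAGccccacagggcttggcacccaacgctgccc
Abca7-202: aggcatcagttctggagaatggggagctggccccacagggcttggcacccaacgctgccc

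Lcat encodes lecithin-cholesterol acyltransferase, the secreted enzyme that esterifies cholesterol on lipoproteins. It lies on the minus strand of chromosome 8, at 105939551 to 105943382 (ENSMUSG00000035237.7), and has 1 annotated transcript, with a coding sequence of 1314 bases. Replicate 1 had 354 reads and replicate 2 had 274 reads, for 11.41 and 9.89 TPM (10.65 ± 1.07, SD, n = 2). The log2 ratio was 0.33, with a counting interval of 0.10 to 0.57, the widest of the 8. An antisense gene, Gm16156, spans Lcat and held 0 reads in replicate 1 and 3 reads in replicate 2; the strand setting of the counting is not given in the sources used here. The level of Lcat was close to that of Abca1, 1.11-fold in replicate 1 and 1.00-fold in replicate 2.

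Lrp1 encodes a large endocytic receptor for apolipoprotein E and many other ligands, present on neurons and glia. The gene occupies 127538161 to 127621148 on the minus strand of chromosome 10 (ENSMUSG00000040249.15). It collected 24317 reads in replicate 1 and 26349 reads in replicate 2, and stood at 107.03 and 130.76 TPM (119 ± 16.8, SD, n = 2). Here replicate 1 was the lower library, with a log2 ratio of −0.15 (counting interval −0.18 to −0.12). Apoe exceeded Lrp1 11.3-fold in replicate 1 and 8.42-fold in replicate 2, a wider gap between the animals than for Apoe over Clu.

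The full-length transcript Lrp1-201, of 14888 bases and with a coding sequence of 13635 bases, held 96.5% of the gene's reads in replicate 1 and 95.8% in replicate 2. Its share of Lrp1 TPM was only 59.35% and 58.57%, because TPM counts a short transcript as much as a long one. Short transcripts typed as retained introns took 24.4% of Lrp1 TPM in replicate 1 and 23.9% in replicate 2, on 2.35% and 2.58% of the reads. Lrp1-205, of 679 bases and typed as a target of nonsense-mediated decay, took a further 14.97% and 15.40%. The tables differed on these short forms. In the kallisto-format table the retained introns took 6.45% in replicate 1 and 7.23% in replicate 2, and Lrp1-205 took 27.2% and 24.9%. Lrp1-208, of 763 bases, held 18.42% and 15.78% in the RSEM-format table and was at 0.78 and 0 TPM in the kallisto-format table. Lrp1-201 by itself stood at 63.52 and 76.59 TPM in the RSEM-format table, and on transcripts with the whole coding sequence Apod lay above Lrp1 in both libraries. The kallisto-format table also placed Apod first, at 140 ± 15.4 TPM beside 98.6 ± 3.34 TPM for Lrp1 (SD, n = 2 each). Over transcripts typed protein-coding the order was the other way, with Lrp1 at 72.1 ± 10.2 TPM, Sorl1 at 56.9 ± 6.17 TPM and Apod at 53.4 ± 9.18 TPM (SD, n = 2 each), and Sorl1 and Apod overlapped between the animals.

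Sorl1 encodes a sorting receptor that directs the amyloid precursor protein and lipoprotein cargo between endosome and Golgi. It lies on the minus strand of chromosome 9, at 41964720 to 42124297 (ENSMUSG00000049313.8). There were 13991 reads in replicate 1 and 14563 reads in replicate 2, for 56.98 and 65.90 TPM (61.4 ± 6.31, SD, n = 2). As with Lrp1, replicate 1 was lower, with a log2 ratio of −0.09 (counting interval −0.13 to −0.06). Sorl1-201, with a coding sequence of 6645 bases, held 92.21% and 92.97% of Sorl1 TPM in replicates 1 and 2 in the RSEM-format table. In the kallisto-format table its share was 81.5% and 84.5%. There Sorl1-204, typed as a retained intron, held 17.2% and 13.2%, where the RSEM-format table had 5.30% and 4.49%. Lrp1 exceeded Sorl1 1.88-fold in replicate 1 and 1.98-fold in replicate 2. The antisense genes Gm16217 and Gm16214, which lie across Lrp1 and Sorl1, held 0 reads in both libraries.

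**Figure D3:**
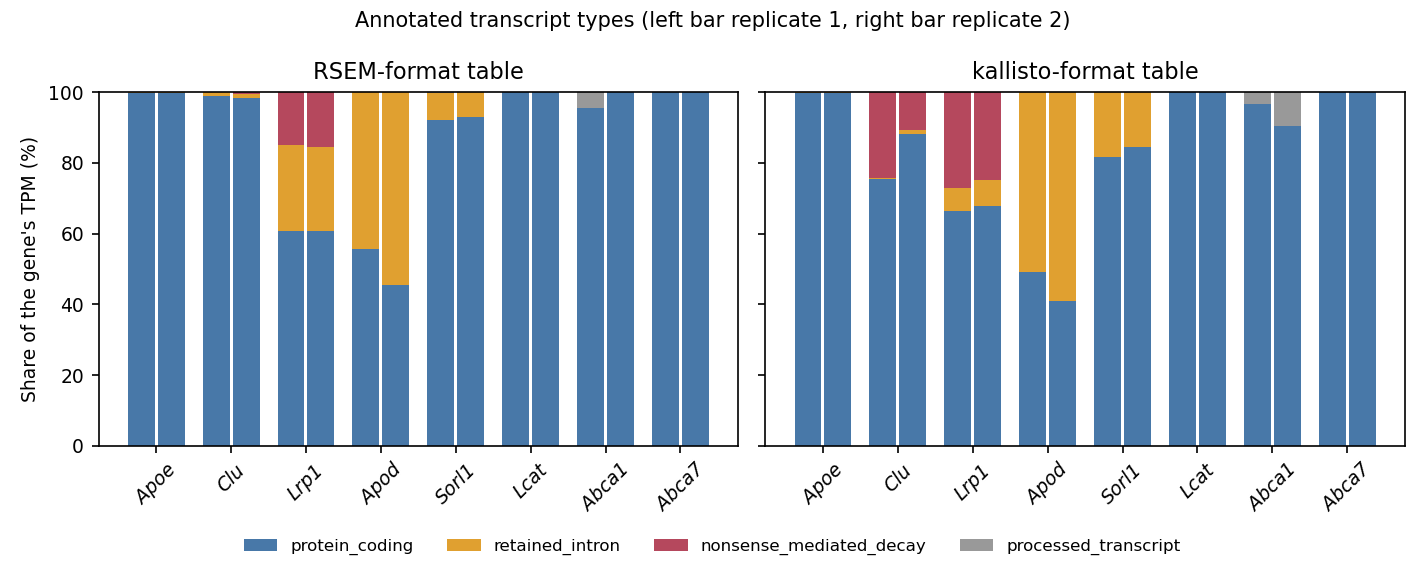
Share of each gene's TPM, in percent, by the annotated type of its transcripts, in the RSEM-format table (left) and the kallisto-format table (right); the left bar of each pair is replicate 1. Apoe, Lcat and Abca7 are almost wholly protein-coding in both tables, while Apod and Lrp1 carry large shares typed otherwise.

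None of the 8 genes differed 2-fold between the animals. This is near the share over all genes, 4.94% of the 19484 that reached 10 reads in either library. The median absolute log2 ratio over genes with 200 reads in each library was 0.08, and by TMM all of the 8 but Abca7 exceeded it. Only Lcat, 1.26-fold higher in replicate 1, differed by at least 25% between the animals. Among all genes 22.9% differed by that much, 10.8% with replicate 1 the higher, and among those that reached 200 reads in each library 2.9% did. Lcat came to under 25% when the libraries were scaled by their totals or by spike-ins, or when the kallisto-format table was used. The median log2 ratio was 0.15 over the 8 genes and 0.00 over all genes tested. By role, the 3 carriers had ratios of 0.16 to 0.27, all higher in replicate 1 under each of the 4 scalings and in the kallisto-format table. Both receptors were lower in replicate 1 under the same settings, while the sign of Abca7 changed among them.

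Markers of several cell types were also higher in replicate 1. This held for all 7 astrocyte, all 6 microglial and all 6 oligodendrocyte markers in each scaling. The astrocyte ratios were 0.08 to 0.24 on the log2 scale by TMM, and the lowest was 0.003 with spike-in totals. All 5 mural cell markers, by 0.12 to 0.40 by TMM, and all 4 ependymal markers, by 0.42 to 2.69, were also higher in replicate 1 in each scaling. Other lists were mixed by TMM, with 3 of 4 endothelial, 4 of 5 meningeal and fibroblast, 2 of 3 oligodendrocyte precursor and 3 of 5 blood markers higher in replicate 1. Cortical neuron markers had a median of −0.04, and 3 of 4 were lower in replicate 1 by TMM. Choroid plexus markers had a median log2 ratio of 2.05, and the one with the most reads was Ttr, the transthyretin gene, with 14495 reads in replicate 1 and 2451 reads in replicate 2. The part of these markers in the ratios of the 8 genes was not tested.

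**Figure D4:**
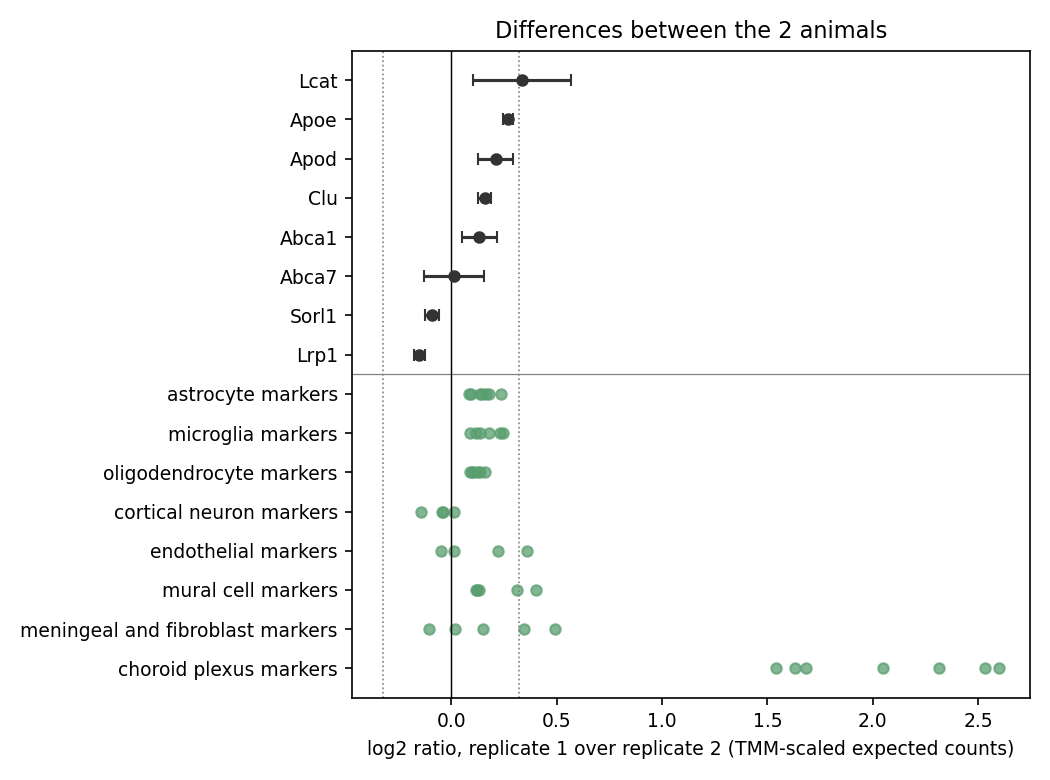
Log2 ratio of replicate 1 over replicate 2 on TMM-scaled expected counts, for the 8 genes with 95% counting intervals (above the line) and for each marker gene of the cell types named on the axis (below it). Ependymal, oligodendrocyte precursor and blood markers are not drawn. Dotted lines mark a difference of 25%. Lcat, Apoe, Apod, Clu and Abca1 lie right of 0 with the astrocyte, microglial and oligodendrocyte markers, Lrp1 and Sorl1 lie left, and the choroid plexus markers lie beyond 1.5.

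The wider lipid transport pathway was followed in a list of 58 other genes, of which 45 were detected. Of the 11 other apolipoprotein genes, 1 was detected, Apoc1, a neighbour of Apoe on chromosome 7, at 2.74 ± 0.438 TPM from 26 reads in replicate 1 and 18 in replicate 2. For Apoa2 the reads numbered 13 and 6, and for Apoh 6 and 5. Apob, the structural protein of plasma low-density lipoprotein, had 0 reads in replicate 1 and 1 read in replicate 2. Each of these 11 genes lay far below Apoe, Clu and Apod.

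Of the 11 other ABC transporters, 10 were detected and 5 had a higher mean level than Abca1. The highest were Abca2, a transporter abundant in oligodendrocytes, at 76.9 ± 6.12 TPM, Abcg1, a sterol exporter, at 36.2 ± 0.693 TPM, and Abca3 at 28.5 ± 4.17 TPM (SD, n = 2 each). Among 18 further receptors and sorting proteins, 17 were detected. Sort1, the sortilin gene, stood at 113 ± 8.82 TPM, within the range of Lrp1, and Lrpap1, which encodes a chaperone of the receptor family, at 68.0 ± 4.45 TPM. Trem2, a microglial lipid receptor, had 42.4 ± 1.56 TPM, while Lrp2 held 6 reads in replicate 1 and 3 in replicate 2.

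Of 9 enzymes and transfer proteins, 8 were detected, and Cyp46a1, which makes the hydroxylated cholesterol that leaves the brain, led with 106 ± 10.0 TPM. It was followed by Pltp, a phospholipid transfer protein, at 49.47 TPM in both libraries, and by Soat1, the intracellular counterpart of Lcat in cholesterol esterification, at 22.5 ± 0.163 TPM. Soat1 was thus above Lcat in each library. All 9 regulators were detected, with the sterol regulatory factors Srebf2 at 93.3 ± 9.65 TPM and Srebf1 at 43.7 ± 2.02 TPM the highest.

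Between the animals, 4 of the 47 listed genes tested differed by at least 25% (8.51% of them, beside 22.9% of all genes tested), all higher in replicate 1, as were 10.8% of all genes tested. With at least 100 reads in a library these were Abca4, with 198 reads in replicate 1 and 143 in replicate 2 (log2 ratio 0.43), and Lipg, an endothelial lipase, with 109 and 85 reads (log2 ratio 0.32, counting interval −0.10 to 0.75). The other 2 were Apoc1 and Apoa2, and Apoa2, on its few reads, was the only one past 2-fold. None of the 4 reached 200 reads in each library, a depth at which 2.9% of all genes differed by at least 25%. The median log2 ratio over the list was 0.04.

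**Figure D5:**
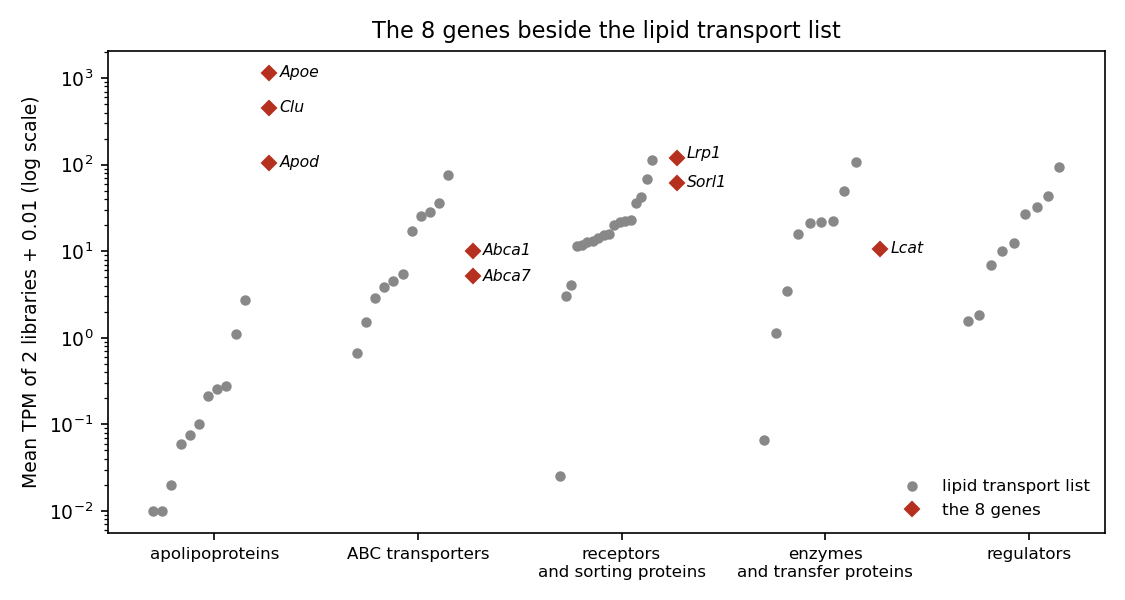
Mean TPM of both libraries plus 0.01, on a log axis, for the 58 genes of the lipid transport list by role (grey) and for the 8 genes beside their role (red). Apoe, Clu and Apod lie far above the 11 other apolipoproteins of the list, and Abca1 and Abca7 lie among the other transporters.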

How the data were processed

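For each library the authors deposited RSEM-format tables of genes and of transcripts, and a kallisto-format table of transcripts. Per the file headers, the first pair holds expected counts and TPM, with each transcript's percent of its gene's TPM. Estimated counts and TPM of the deposited kallisto-format table were summed per gene here; it lacked 86 genes. A deposited description names mm10 and annotation M21; no source used here gives the aligner, versions, strand setting or read filters. Gene positions and coding sequences came from that annotation and promoters from RefSeq.

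Expected counts were rounded. Ratios are replicate 1 over replicate 2, scaled by TMM (edgeR 4.0.16), with 0.5 reads added to each library and at least 10 reads in a library. Intervals are 95% Clopper-Pearson intervals of the split of reads and cover counting error alone; they hold no spread between animals, and reads that lack molecular identifiers need not be separate molecules. All 8 genes are named. Of the pathway list, the 3 highest genes per role and those that differed by at least 25% with at least 100 reads are named; Apob, Lrp2, Nr1h2, Nr1h3, Rxra and Rxrg were added after their values were seen. The members and lists were chosen with earlier results of these data known. Alternatives were DESeq2 size factors (1.42.0), library totals, spike-in totals, the kallisto-format table, posterior mean TPM, other thresholds and leaving out each library. Some genes of the marker lists are not reported here.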

Additional observations from a re-analysis of the deposited data

How the results depend on the processing

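Of 44 recomputed summary values 36 stayed within tolerance, which was 1.5 times for a count, the SD of the animals for a level and the mean counting error for a median log2 ratio. The count of the 8 genes that differed by at least 25%, 1 by TMM, was 0 with library totals, with spike-in totals and with the kallisto-format table. The count of listed pathway genes that did so, 4 with the read minimum, was 11 without it. The median level of the 8 genes, 83.3 TPM, was 80.7 TPM in the kallisto-format table, 81.6 TPM from posterior means, 191 TPM when rescaled to nuclear coding genes and 55.1 TPM over transcripts typed protein-coding, a setting chosen after seeing the data. The causes were not tested, beyond the smaller denominator of the rescaled TPM. With either library left out, that median was 82.0 to 84.4 TPM, the pathway genes detected were 45 to 46, and all 8 genes stayed detected. Detection required 1 TPM in both libraries, so leaving out a library, or a lower threshold, could not lower either count of detected genes. Part of the 36 was therefore fixed in advance. Of the 8 genes, 8 had the same leading transcript in both tables with either library left out, beside 7 with both libraries. Both counts include Lcat, which has 1 transcript and cannot differ. Among detected protein-coding genes with at least 2 transcripts, 9747 of 11826 (82.4%) had the same leading transcript in both tables. Of 128 values of single genes, 90 stayed within their counting interval or SD and 38 did not. Part of the 90 was fixed in advance, because leaving out 1 of 2 libraries cannot move a mean past their SD. Dropping the read minimum could not change a ratio of the 8 genes either, or their counts and median ratio, as all 8 pass it. Those settings therefore say nothing about how stable the values are. The log2 ratio of Abca7, 0.01 by TMM with an interval that includes 0, was −0.02 with library totals, −0.07 with spike-in totals and −0.01 in the kallisto-format table. Ratios of Apoe, Clu, Lrp1 and Sorl1 left their counting intervals in some settings, with the same sign. That of Apoe, 0.268 by TMM (interval 0.244 to 0.292), was 0.235 with library totals, 0.187 with spike-in totals and 0.294 in the kallisto-format table. That of Lrp1, −0.150 by TMM (interval −0.175 to −0.125), was −0.183, −0.231 and −0.120 in these settings. With spike-in totals Clu was at 0.078 and Sorl1 at −0.173. A ratio between the animals has no value with a library left out. No paired analysis was possible because the samples form a single group. Depth limits Lcat and Abca7 most, whose ratios have the widest counting intervals.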
